A study of Capra hircus with 27 samples.

Results

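The genes described here are the 100 most abundant transcripts that goat heart, lung and skeletal muscle had in common. For each of the 17670 genes whose identifier starts with GOAT_ (1 such gene was left out by the rule), the mean of log2(FPKM + 1) over the 9 libraries of each tissue was taken, where FPKM counts fragments per kilobase of transcript and relative to the sequencing depth. The genes were ordered by the smallest of their 3 tissue means, and the first 100 were kept, out of 22131 genes in all. Rank 1 is the gene with the highest smallest mean. The levels of these genes chose them, so their levels, their shares and their order between tissues are given as a description with no test. The differences between altitudes were not used in the choice and were tested.

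RNA was sequenced from goats (Capra hircus) of about 3 years of age from 3 populations, sampled at Ya'an (600 m), Zhaotong (2000 m) and A'ba (3000 m). There were 3 libraries for every tissue at every altitude, 27 in all. Each altitude is 1 population at 1 place, so altitude, population and place cannot be told apart. The comparisons ask how the transcripts of the high-altitude populations differed from those of their low-altitude relatives.

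Transcripts that are very abundant in every tissue usually encode the general machinery of the cell: ribosomal proteins and elongation factors of translation, subunits of the mitochondrial respiratory chain, ferritin, and proteins of the cytoskeleton. Many of these proteins act in complexes with a fixed stoichiometry, and their transcripts are often made and held at similar levels. Heart and skeletal muscle are both striated muscle and share contractile and energy-supply genes that lung holds at lower levels. Which of these roles each of the 100 genes has could not be stated, because none of the gene identifiers matched a table of symbols. The genes are therefore called by their rank, and 4 are also called by their identifier. Of the 100 identifiers, 60 start with GOAT_ENSBTAP and 40 with GOAT_ENSP, against 52.5% and 47.5% of the ranked genes, and 4 carry a suffix of D and a number, against 7.35%.

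Some facts about the libraries bear on what follows. Over 88 genes whose read numbers could be recovered, muscle replicates 1 and 2 at 600 m differed by no more than the sampling noise: the variance of their difference was 1.11 times that of sampling, against 9.56 to 35.5 times in the other 26 replicate pairs. They were averaged and counted as 1 sample, which left 26 samples and n = 2 for muscle at 600 m. The match did not extend to all of the 100 genes, for which sampling noise could not be computed. Of these, 5 differed by more than 0.3 on the log2 scale between the libraries, with the widest gap, 0.87, at rank 78, and rank 1 had 196714 and 135940 FPKM. Absolute depth is unknown, because the values are normalized. The relative depth of the libraries ran from 0.802 to 1.27. The methods of the study give 3 unrelated females for each of the 600 m and 3000 m populations and do not cover the 2000 m goats. The labels do not tie libraries to animals, so p-values measure the spread between these samples. In whole tissue, fewer cells of a type and less RNA per cell cannot be told apart. The tissue labels could not be checked against marker genes.

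The 100 genes were abundant in each library. Their lowest value in any library was 165.7 FPKM and their highest 196714 FPKM, and 0 values were at 0. They stood within the first 245 of all genes in heart, the first 206 in lung and the first 233 in muscle, with median places of 98.5, 63.5 and 107.5 respectively. Among the first 100 genes of heart were 52 of them, among those of lung 70, and among those of muscle 46. The genes were thus abundant in all 3 tissues, although they are not the list of the most abundant genes of any 1 tissue. Had all identifiers been ranked together, 95 of the 100 would have stayed. At the edge of the set, ranks 98, 99 and 100 had smallest means of 8.53, 8.51 and 8.50 on the log2(FPKM + 1) scale, and ranks 101, 102 and 103 just outside had 8.48, 8.46 and 8.45. The step from rank 100 to rank 101 corresponds to 361.9 against 355.5 FPKM.

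GOAT_ENSBTAP00000015883 stood first, with mean levels of 16.03 (heart), 15.30 (muscle) and 14.05 (lung) on the log2(FPKM + 1) scale. It was the most abundant of all genes in heart and lung and the second in muscle. Rank 2 was at a similar level in the 3 tissues, at 13.41 in heart, 13.53 in lung and 13.71 in muscle. Rank 3 was at 15.34 in heart, 12.47 in lung and 14.25 in muscle, and rank 4 was highest in muscle, at 13.48, with 12.69 in heart and 12.45 in lung.

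**Figure D1:**
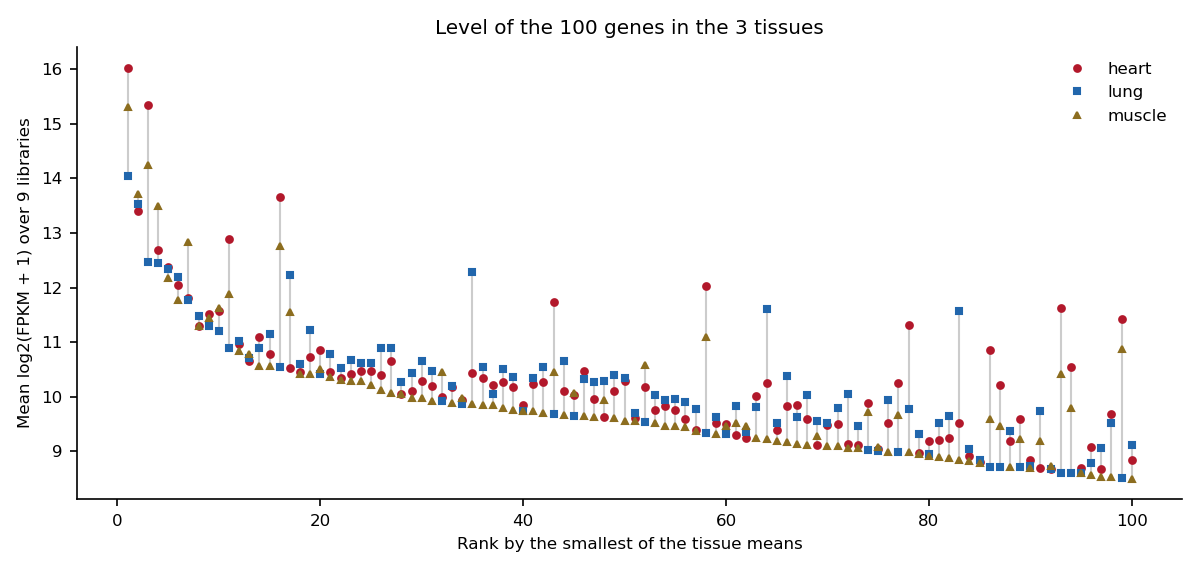
Mean log2(FPKM + 1) over the 9 libraries of each tissue (vertical axis) for the 100 genes by rank (horizontal axis), with heart as circles, lung as squares and muscle as triangles, and a grey line joining the tissues of 1 gene. Most genes lie close together in the 3 tissues, and 11 genes have lines of 2 log2 units or more.

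For most genes the difference between tissues was small. The range over the 3 tissue means had a median of 0.60 on the log2 scale and ran from 0.047 to 3.12. It was under 0.5 for 41 genes, from 0.5 to 1 for 36, from 1 to 2 for 12 and 2 or more for 11. The next 100 genes by the same order had a median range of 1.13, with 27 at 2 or more, and the 10385 GOAT_ genes with a mean above 0.5 FPKM in each tissue had a median range of 1.14. The choice by the smallest mean itself favours genes with a narrow range.

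The order between tissues was uneven. Lung was the highest tissue for 58 genes, heart for 30 and muscle for 12. Muscle was the lowest for 65, lung for 27 and heart for 8. The order of lung, heart, muscle from high to low was held by 53 genes, and that of heart, muscle, lung by 18. In only 9 genes did every library of the highest tissue lie above every library of both other tissues: 6 were highest in heart, 2 in lung and 1 in muscle. In 5 genes all 3 tissues were clear of each other.

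A few genes stood far from this pattern. Heart and muscle were both at least 1 log2 unit above lung in 7 genes (ranks 1, 3, 16, 58, 93, 94 and 99). The widest of all was GOAT_ENSBTAP00000047840 (rank 16), at 13.66 in heart, 12.76 in muscle and 10.54 in lung. Its lowest, median and highest values were 10078, 11924 and 19122 FPKM in heart, and 1042, 1549 and 1946 FPKM in lung, with no overlap. Lung was at least 1 log2 unit above both other tissues in 3 genes (ranks 35, 64 and 83). Of these, rank 83 had 2305 to 3854 FPKM in lung, 435.1 to 1021 in heart and 309.2 to 813.4 in muscle, so that lung was clear of both. Rank 7 was the gene whose muscle libraries were clear of the others, with 6421 to 8901 FPKM in muscle against 2739 to 4869 in heart and 2382 to 4692 in lung.

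Together the 100 genes held between 21.6% and 43.9% of the summed FPKM of a library. Over all altitudes heart gave them 34.0% ± 2.14 (SD, n = 9), lung 29.1% ± 2.65 (SD, n = 9) and muscle 29.2% ± 6.27 (SD, n = 8). At 600 m muscle was above heart, at 37.9% against 35.3%. In heart the libraries held 33.8%, 36.8% and 35.5% at 600 m, 30.7%, 31.1% and 34.5% at 2000 m, and 35.5%, 35.6% and 32.4% at 3000 m. The heart altitudes overlapped. In lung they held 31.7%, 29.0% and 28.0% at 600 m, 29.7%, 31.2% and 32.9% at 2000 m, and 24.3%, 27.2% and 27.5% at 3000 m. Lung at 3000 m lay below both other altitudes. In muscle they held 43.9%, 39.4% and 34.1% at 600 m, 28.0%, 23.9% and 21.6% at 2000 m, and 28.3%, 28.9% and 26.7% at 3000 m. Muscle at 600 m lay above the higher altitudes in each library.

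The muscle difference lay mostly with a pair of genes. The first gene alone took 22.7%, 17.2% and 8.85% of the summed FPKM of the muscle libraries at 600 m, against 2.44%, 2.80% and 1.64% at 2000 m and 5.28%, 5.16% and 4.97% at 3000 m. Rank 4 took 4.08% ± 0.220 (SD, n = 2) at 600 m, 1.07% ± 0.269 (SD, n = 3) at 2000 m and 0.993% ± 0.520 (SD, n = 3) at 3000 m. Ranks 11 to 100 took nearly the same share of muscle at each altitude, with means of 12.5%, 12.5% and 12.9%. In heart the first gene took 8.27% ± 1.44 at 600 m, 6.94% ± 0.708 at 2000 m and 10.2% ± 1.09 at 3000 m (SD, n = 3 each), and in lung 3.83% ± 0.529, 2.85% ± 0.386 and 2.36% ± 0.814 (SD, n = 3 each). Ranks 11 to 100 took 15.3% ± 1.70 of heart and 18.3% ± 1.90 of lung (SD, n = 9 each). The total of a library moves these shares too. Heart totals were 716661 to 904780 FPKM, lung totals 448581 to 639955 and muscle totals 633977 to 864850, with the lowest in lung replicate 1 at 3000 m.

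**Figure D2:**
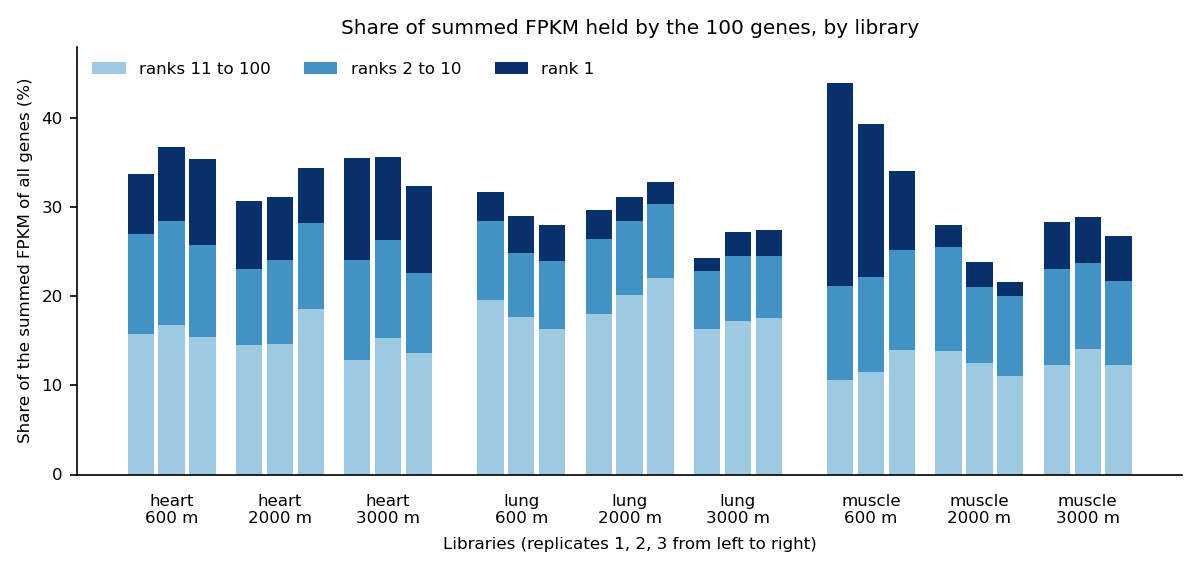
Share of the summed FPKM of all genes (vertical axis, percent) in each of the 27 libraries, grouped by tissue and altitude along the horizontal axis, with each bar split into rank 1 (dark), ranks 2 to 10 and ranks 11 to 100 (light). The dark portion reaches 22.7% in muscle replicate 1 at 600 m and is 1.64% in muscle replicate 3 at 2000 m, while the light portion of muscle changes little with altitude.

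Altitude was tested with limma on log2(FPKM + 1) over all genes with a mean above 0.5 FPKM in the tissue, and a gene was called at an adjusted p of at most 0.05. All 100 genes passed this filter in each tissue. Of the 100, 17 were called in at least 1 of 9 comparisons and 83 in none, where 32.3% of the 11244 genes tested in all tissues were called at least once. All calls but 1 were in the direction of lower levels at the higher altitude. The comparisons of 3000 m and of 2000 m with 600 m share the 600 m samples, so their counts are set side by side and not added together.

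In heart, 1 of the 100 genes rose and 8 fell between 600 m and 3000 m, where 11.1% of the 12363 genes tested were called (7.38% higher and 3.75% lower). The median change of the 100 was -0.35, against 0.08 for all tested genes, and 81 were lower, with changes from -1.49 to 1.16. Between 600 m and 2000 m, 10 fell and 0 rose, where 22.5% of genes were called (16.3% higher and 6.18% lower), and the median was -0.21 against 0.13. Every heart library at 3000 m lay below every one at 600 m in 41 of the 100 genes, against 12.3% of genes tested, and above in 1, against 21%. At 2000 m it was below in 16, against 12.4%. The next 100 genes had 17 and 27 calls in these comparisons, with median changes of -0.13 and -0.19. The heart counts moved with the omission of many of the libraries. For fits with a library omitted, here and below, the share of all genes called is not given. Those counts therefore cannot be set against it. At 3000 m the count fell to 0 without 3000 m replicate 1, to 2 if 600 m replicate 2 was omitted, 3 if 600 m replicate 3 or 3000 m replicate 3 was omitted, 5 if 2000 m replicate 1 or 2 or 3000 m replicate 2 was omitted, and 15 with 2000 m replicate 3 omitted. The 2000 m count was 6 without 600 m replicate 2 or 3, 4 and 5 without 2000 m replicates 1 and 2, and 17 once 2000 m replicate 3 was omitted.

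In lung, 4 of the 100 genes fell and 0 rose between 600 m and 3000 m, where 2.84% of the 13965 genes tested were called (0.73% higher and 2.11% lower). The median change was -0.28 against -0.08 for all genes, and 89 were lower. The next 100 genes fell further, with a median of -0.40, 78 lower and 6 called, so the fall was not particular to the 100. Between 600 m and 2000 m, 3 fell and 0 rose, where 5.1% were called (2.22% higher and 2.88% lower), although the median of the 100 was 0.09 against -0.05 and only 44 were lower. The groups did not overlap, with 3000 m below 600 m, in 34 genes, against 20.4% of those tested, and with 2000 m below in 13, against 20.1%. These calls were near the threshold. The 3000 m count was 0 when any lung library other than 600 m replicate 1 was left out. The 2000 m count was 0 without 600 m replicates 2 or 3, any 2000 m library or 3000 m replicate 1, and 1 without 3000 m replicate 2.

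In muscle, 3 of the 100 genes fell and 0 rose between 600 m and 3000 m, where 2.08% of the 11920 genes tested were called (0.772% higher and 1.31% lower), and 6 fell and 0 rose between 600 m and 2000 m, where 5.91% were called (1.93% higher and 3.98% lower). The median changes were -0.12 and -0.18, close to those of all genes at -0.08 and -0.12, and the changes ran from -2.66 to 0.86. The 3000 m group lay below the 600 m group in 35 genes, against 23.6% of those tested, and above in 15, against 17.8%. The 2000 m group lay below 600 m in 20 genes, against 29.2%. The 3000 m count was 0 without 600 m replicate 3 or 3000 m replicates 1 or 3, 1 without 2000 m replicate 3 and 5 without 3000 m replicate 2. The 2000 m count was 1 without 600 m replicate 3 or 2000 m replicates 2 or 3, and 2 if 2000 m replicate 1 was omitted.

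Between 2000 m and 3000 m, limma called 0 of the 100 genes in any tissue, where 0.00809% of genes were called in heart, 0% in lung and 0.00839% in muscle. At an unadjusted p under 0.05 the set had 11 genes in heart, where 14.5% of genes tested passed, 3 in lung, where 5.78% did, and 3 in muscle, where 8.82% did. The lung changes went 1 way all the same: 97 of the 100 were lower at 3000 m than at 2000 m, with a median of -0.36 against -0.03 for all genes. Most of the next 100 genes went the same way, with 86 lower and a median of -0.19. Other scalings left 76 to 96 of the 100 lower, the fewest with quantile normalization, where their median was -0.11. Within the lung groups, however, the 100 genes moved together from library to library by as much, as described further on. The libraries of the 2000 m and 3000 m lung groups did not overlap, with 3000 m below, in 9 genes, against 8.15% of those tested.

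**Figure D3:**
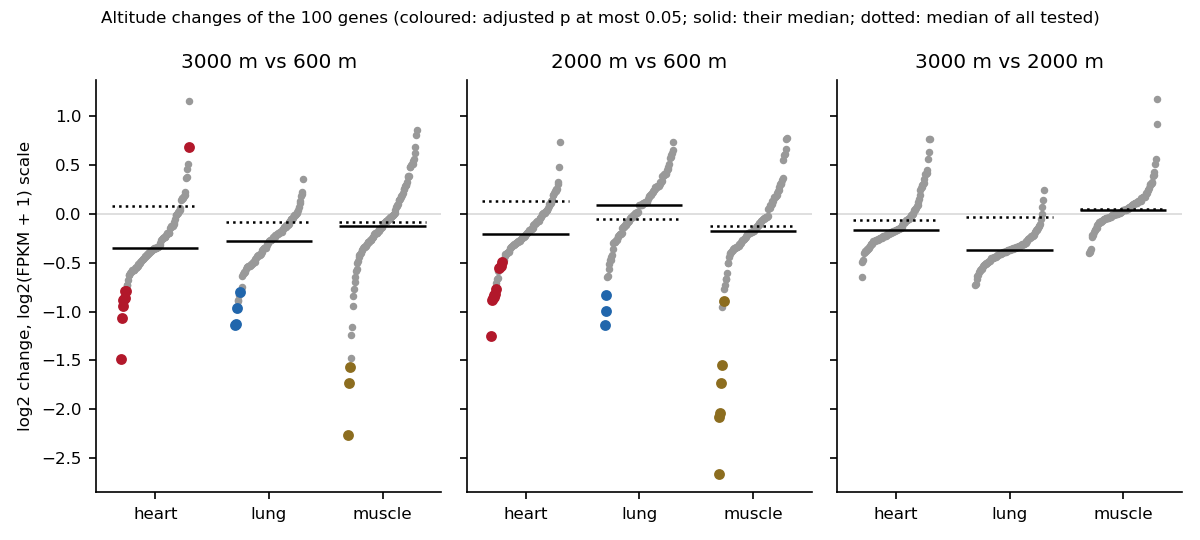
Change of each of the 100 genes on the log2(FPKM + 1) scale (vertical axis) by tissue, sorted within each tissue, in 3 panels for the altitude comparisons, with called genes coloured and larger. Solid lines give the median of the 100 and dotted lines that of all tested genes; the solid line lies below the dotted one in heart in each panel, and 1 coloured point, in heart at 3000 m against 600 m, is above 0.

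GOAT_ENSP00000297258 (rank 98) was called lower in all 6 comparisons with 600 m, which was more calls than any other of the 100 genes had. In heart its values were 1091, 1542 and 1263 FPKM at 600 m, 620.1, 787.2 and 723.6 at 2000 m, and 586.7, 766.9 and 517.4 at 3000 m. In lung they were 1436, 1050 and 1168 FPKM at 600 m, 780.9, 507.0 and 556.1 at 2000 m, and 574.5, 485.6 and 589.1 at 3000 m. In muscle they were 681.5, 698.4 and 1024 FPKM at 600 m, 353.6, 193.4 and 235.0 at 2000 m, and 232.3, 289.3 and 236.9 at 3000 m. The 600 m libraries were above both higher altitudes in each tissue, with no overlap, while 2000 m and 3000 m overlapped in each.

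The log2 change of GOAT_ENSP00000297258 from 600 m to 3000 m was -1.06 ± 0.19 (SE) in heart (adjusted p = 0.0164), -1.14 ± 0.22 in lung (adjusted p = 0.0441) and -1.74 ± 0.30 in muscle (adjusted p = 0.0290). From 600 m to 2000 m it was -0.86 ± 0.19 in heart (adjusted p = 0.0147), -0.999 ± 0.22 in lung (adjusted p = 0.0432) and -1.73 ± 0.30 in muscle (adjusted p = 0.0234). The change stayed negative under each alternative tried, and the heart calls held in 15 and 17 of 18 alternatives. The lung calls held in 3 and 6 of 18, with adjusted p up to 0.154 and 0.143, and the muscle calls in 11 and 13 of 17. The heart calls were lost without 600 m replicate 2 (adjusted p = 0.0508), 3000 m replicate 1 (adjusted p = 0.0670) or 3000 m replicate 3 (adjusted p = 0.0530) at 3000 m, and with 2000 m replicate 1 omitted at 2000 m (adjusted p = 0.0542). Muscle lost both calls without 600 m replicate 3 (adjusted p = 0.194 and 0.160) or 2000 m replicate 3 (adjusted p = 0.0576 and 0.0720), that at 3000 m also without 3000 m replicate 1 or 3, and that at 2000 m also without 2000 m replicate 2. Lung lost both calls on omission of any lung library other than 600 m replicate 1 or 3000 m replicate 3, and the 3000 m call without the latter as well.

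GOAT_ENSBTAP00000026724 (rank 61) had the same form. Its heart values were 898.8, 1486 and 961.7 FPKM at 600 m, 604.8, 651.2 and 560.2 at 2000 m, and 372.8, 436.8 and 354.5 at 3000 m. Its lung values were 1756, 1424 and 1223 FPKM at 600 m, 485.7, 768.8 and 773.3 at 2000 m, and 817.7, 890.4 and 664.1 at 3000 m. Its muscle values were 1347, 1397 and 1430 FPKM at 600 m, 423.4, 491.5 and 530.5 at 2000 m, and 415.6, 731.1 and 688 at 3000 m. All 600 m libraries were higher than those of the other altitudes, and only in heart did 3000 m also lie clear below 2000 m.

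The change of GOAT_ENSBTAP00000026724 at 3000 m against 600 m was -1.49 ± 0.20 (SE) in heart (adjusted p = 0.0116). It did not pass in lung, at -0.89 ± 0.25 (adjusted p = 0.0710), or in muscle, at -1.24 ± 0.28 (adjusted p = 0.0556). At 2000 m against 600 m it fell in heart by 0.85 (adjusted p = 0.0168), in lung by 1.13 (adjusted p = 0.0426) and in muscle by 1.54 (adjusted p = 0.0254). The heart call at 3000 m held in 17 of 18 alternatives and was lost without 3000 m replicate 1 (adjusted p = 0.0526), and the lung call at 2000 m held in 6 of 18. The other calls at 2000 m held in 15 of 18 alternatives in heart and 12 of 17 in muscle. Omission of 2000 m replicate 1 or 3 ended the heart call at 2000 m (adjusted p = 0.0502 and 0.0512), and omission of 600 m replicate 3 or any 2000 m library ended the muscle call (adjusted p = 0.0595 to 0.156). The lung call was kept only when the library omitted was 600 m replicate 1 or 3000 m replicate 3.

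GOAT_ENSBTAP00000015883 (rank 1) was called in 1 comparison, muscle at 2000 m. In muscle its values were 196714, 135940 and 59966 FPKM at 600 m, 19388, 19589 and 10372 at 2000 m, and 38260, 33923 and 35314 at 3000 m. The altitudes did not overlap, and the 600 m libraries themselves spread by more than 3 times. Muscle fell by 2.66 ± 0.47 (SE) on the log2 scale at 2000 m (adjusted p = 0.0240), and the change at 3000 m was -1.48 ± 0.47 (adjusted p = 0.116). The 3000 m change was -0.74 without the averaged 600 m sample and -2.22 without 600 m replicate 3, and neither passed. The 2000 m call was lost without the averaged 600 m sample (a change of -1.92, adjusted p = 0.0501) and with any of 2000 m replicates 1, 2 and 3 omitted (adjusted p = 0.0502, 0.0756 and 0.0696). With every library kept as its own sample, the 3000 m change was -1.71 and passed (adjusted p = 0.0427), and its adjusted p over 17 alternatives ran from 0.0371 to 0.392.

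In heart the first gene had 55614, 67202 and 80291 FPKM at 600 m, 55511, 50226 and 48015 at 2000 m, and 103274, 82344 and 77870 at 3000 m. Its heart change was -0.39 ± 0.21 at 2000 m (adjusted p = 0.212) and 0.38 ± 0.21 at 3000 m (adjusted p = 0.252), neither called. In lung it had 20050, 26336 and 25523 FPKM at 600 m, 19287, 15014 and 16114 at 2000 m, and 6429, 14788 and 18883 at 3000 m. Both higher lung groups lay below 600 m, by -0.51 ± 0.44 (adjusted p = 0.473) and -0.97 ± 0.44 (adjusted p = 0.195), and neither passed.

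GOAT_ENSBTAP00000047840 (rank 16), named here after its values were seen, was the only gene of the 100 with a called rise. Its heart values were 11924, 10892 and 10078 FPKM at 600 m, 12027, 10997 and 10856 at 2000 m, and 18445, 19122 and 15365 at 3000 m. The 3000 m libraries were higher than all others, and 600 m and 2000 m overlapped. The heart change at 3000 m against 600 m was 0.68 ± 0.16 (SE, adjusted p = 0.0312), a fold of 1.61, and it held in 7 of 18 alternatives, with adjusted p from 0.0212 to 0.30. With quantile normalization the change was 0.20 (adjusted p = 0.30). Leaving out any heart library other than 600 m replicate 1 or 2000 m replicate 3 ended the call, with adjusted p from 0.0524 without 2000 m replicate 2 to 0.117 without 3000 m replicate 1. In muscle it had 4656, 4221 and 5730 FPKM at 600 m, 10907, 8898 and 6487 at 2000 m, and 9094, 5643 and 10427 at 3000 m. The muscle changes of 0.77 at 2000 m (adjusted p = 0.197) and 0.69 at 3000 m (adjusted p = 0.279) did not pass, and they were 0.048 and 0.040 with quantile normalization. In lung it had 1042 to 1946 FPKM over the 9 libraries, and the change at 3000 m was -0.22 (adjusted p = 0.632).

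**Figure D4:**
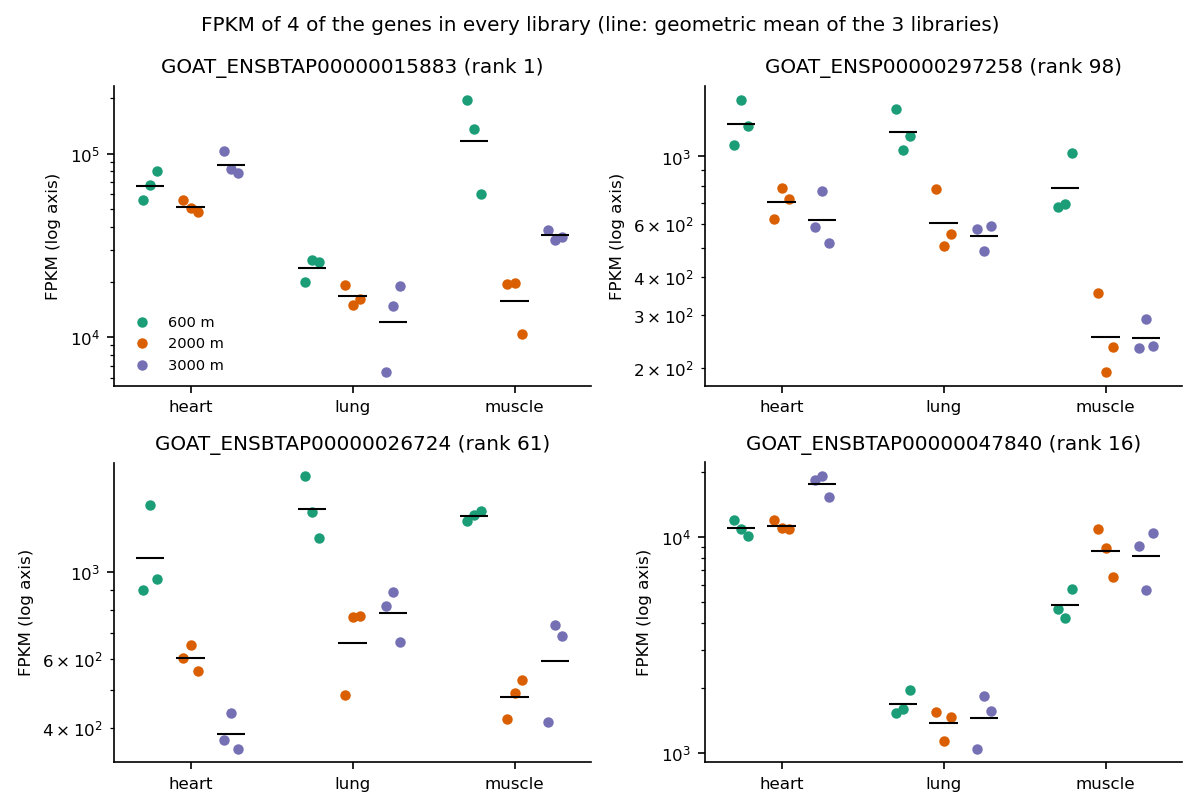
FPKM (log axis) of the 4 genes named by identifier in every library, by tissue and altitude (600 m green, 2000 m orange, 3000 m purple), with a line at the geometric mean of the 3 libraries of a group, in which muscle replicates 1 and 2 at 600 m are drawn separately. Ranks 98 and 61 are higher at 600 m in all 3 tissues, rank 1 spreads from 10372 to 196714 FPKM in muscle, and rank 16 is highest in heart at 3000 m.

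Other genes of the set were called in several comparisons. Rank 84 was called lower in 5 of the 6 comparisons with 600 m. At 3000 m it fell by 0.79 in heart, 1.13 in lung and 1.56 in muscle on the log2 scale. At 2000 m it fell by 0.83 in heart and 2.08 in muscle. Its lung change of -0.65 at 2000 m was not called (adjusted p = 0.101). Its muscle values were 1018, 998.2 and 1111 FPKM at 600 m, 272.0, 347.2 and 165.7 at 2000 m, and 327.3, 401.2 and 347.4 at 3000 m. The 165.7 FPKM among these is the lowest value of the whole set.

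Rank 89 was called lower in 4 comparisons. The falls were 0.94 in heart and 0.97 in lung at 3000 m, and 1.25 in heart and 0.89 in muscle at 2000 m. Its lung change of -0.64 at 2000 m was not called (adjusted p = 0.0927). Its heart libraries were at 1453, 1293 and 1139 FPKM at 600 m, 564.9, 548.3 and 509.2 at 2000 m, and 659.1, 720.6 and 631.1 at 3000 m, and both higher altitudes were far below 600 m. Rank 4 was called in muscle at both altitudes and in no other tissue, falling from 36296, 33750 and 26568 FPKM at 600 m to 8395, 5675 and 8550 at 2000 m and 5531, 10442 and 4466 at 3000 m. These are changes of -2.04 and -2.26, or folds of 4.11 and 4.79. The identifier of rank 4 carries the suffix of D and a number, whose meaning the labels do not give. Whether its reads were shared with other genes was not tested. Ranks 5, 34, 37 and 60 fell in heart at 3000 m, by 0.79 to 0.88, and were called in no other comparison. Ranks 74 and 99 were called lower in heart at 2000 m and in lung, at 3000 m and 2000 m respectively. Their remaining lung changes just missed the threshold or came near it. Rank 74 had -0.57 at 2000 m (adjusted p = 0.0783), and rank 99 had -0.83 at 3000 m (adjusted p = 0.0504). Ranks 8, 9, 92 and 96 fell in heart at 2000 m, by 0.49 to 0.88, and were likewise called nowhere else. The changes of these 8 genes missed the threshold in the other comparisons with 600 m, which does not show that they were absent there: that of rank 5 in heart at 2000 m was -0.71 (adjusted p = 0.0613), and the libraries of ranks 8 and 92 at both higher altitudes lay below all at 600 m in each tissue.

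At 3000 m against 600 m, 61 of the 100 genes were lower in all 3 tissues and 4 higher, where 30.03% and 20.5% of the 11244 genes tested in all tissues were. Of the 100, 8 were called in 1 tissue, 1 in 2 tissues and 2 in 3 tissues, against 12.8%, 1.56% and 0.24% of genes. At 2000 m against 600 m, 36 were lower in all tissues and 16 higher, against 28.5% and 22.2%. Calls in 1, 2 and 3 tissues numbered 7, 3 and 2, against 23.5%, 4.06% and 0.756%. The libraries at 600 m lay above all libraries of both higher altitudes in every tissue for 4 genes (ranks 8, 61, 92 and 98), against 2.81% of these genes, and below for 0 genes, against 1.41%. The tissues may come from the same animals, so a like sign in several tissues is not independent evidence.

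The scaling of the libraries bears on these signs. Other scalings moved the median change of all tested genes by up to 0.19 in size, the largest being 0.19 for lung at 3000 m against 600 m with each library brought to the same summed FPKM. Relative to the median of all genes, the 100 were lower in heart at 3000 m against 600 m under the deposited scale and 4 others, by -0.45 to -0.26. In heart at 2000 m against 600 m the difference ran from -0.37 to -0.050, and was smallest in size with quantile normalization. In lung at 3000 m against 600 m the 100 were lower by -0.20 to -0.071. There 89 of them were lower as deposited and 58 to 79 under the other scalings, the fewest with quantile normalization. The same counts were 67 and 51 to 73 in muscle, and 81 and 77 to 87 in heart. Genes lower in all 3 tissues were counted on the deposited scale only. In muscle at 3000 m against 600 m the median difference lay between -0.13 and -0.013, and in lung at 2000 m against 600 m it was positive, from 0.045 to 0.16. The heart calls at 2000 m against 600 m split into 0 higher and 10 lower as deposited. The split was 2 and 8 with libraries brought to the same sum, and 2 and 9 with quantile normalization. Over all genes tested, 6.18%, 3.29% and 10.2% were called lower in these 3 settings. At 3000 m against 600 m the split was 1 and 8 as deposited and 0 and 12 with median-of-ratios scaling. Over all genes tested, 3.75% and 8.44% were called lower there.

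A direct test of whether the change from 600 m to 3000 m differed between tissues called few of the 100 genes. The fit used no pairing of libraries between tissues, although equal numbers may mark the same animal. Heart against lung gave 0 of 100, where 0.175% of 13723 genes were called by limma, and 4 of the 100 at an unadjusted p under 0.05, against 11.9% of genes. Heart against muscle gave 1, where 1.22% were called, and lung against muscle gave 0, where 1.66% were called, with 6 and 12 of the 100 at an unadjusted p under 0.05, against 15.5% and 16.8%. The gene called was rank 4, whose heart change lay 1.75 ± 0.43 (SE) above its muscle change (adjusted p = 0.0481). Its heart change was -0.51 (adjusted p = 0.219) and its lung change -0.64 (adjusted p = 0.164), each at 3000 m against 600 m. The heart against muscle count was 0 without any 1 of 12 libraries: 600 m heart replicates 1 and 3, all 2000 m and 3000 m heart libraries, 2000 m muscle replicates 2 and 3 and 3000 m muscle replicates 1 and 3. It was 3 without 3000 m muscle replicate 2, as was lung against muscle, which was 1 without 3000 m lung replicate 1. For GOAT_ENSBTAP00000015883 (rank 1), the heart change lay 1.35 ± 0.51 above the lung change (adjusted p = 0.286) and 1.86 ± 0.55 above the muscle change (adjusted p = 0.0868), and neither difference passed.

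The 100 genes also varied together between libraries of the same group. Heart groups had a median SD of 0.28 on the log2 scale, lung groups 0.30 and muscle groups 0.26, against 0.22, 0.27 and 0.28 for all tested genes. As a description over the samples of a tissue, deviations from the group means had a mean pairwise correlation among the 100 of 0.50 in heart (n = 9), 0.54 in lung (n = 9) and 0.59 in muscle (n = 8). The next 100 genes had 0.063, 0.22 and 0.19, and all tested genes had 0.081, 0.057 and 0.065. Genes with a mean above 50 FPKM had 0.037, 0.091 and 0.082. The points share their libraries and the scaling to the library.

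The shared movement was large for some libraries. The median deviation of the 100 genes was 0.44 in heart replicate 3 at 2000 m, with -0.19 and -0.20 in the other two of that group. In lung at 3000 m it was -0.33 in replicate 1 and 0.34 in replicate 3, and in muscle at 2000 m it was 0.30 in replicate 1 and -0.31 in replicate 3. Over all tested genes the same medians stayed between -0.13 and 0.090. The median FPKM of the 100 in a library was 985.3, 962.2 and 1491 in heart at 2000 m, against 1110, 1309 and 1299 at 600 m and 954.4, 1099 and 899.2 at 3000 m. In lung it was 1260, 1107 and 960.0 at 600 m, 989.0, 1132 and 1507 at 2000 m, and 727.6, 948.5 and 1214 at 3000 m, so that all lung altitudes overlapped. In muscle it was 928.6, 929.5 and 977.7 at 600 m, 1026, 807.9 and 655.4 at 2000 m, and 786.8, 895.6 and 781.7 at 3000 m. The relative depth of heart replicate 3 at 2000 m was 0.965, against 0.941 and 0.952 in its group. Depth in lung at 3000 m was 1.04 in replicate 1 and 1.01 in replicate 3. Whether depth had a part in the shared movement was not tested.

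**Figure D5:**
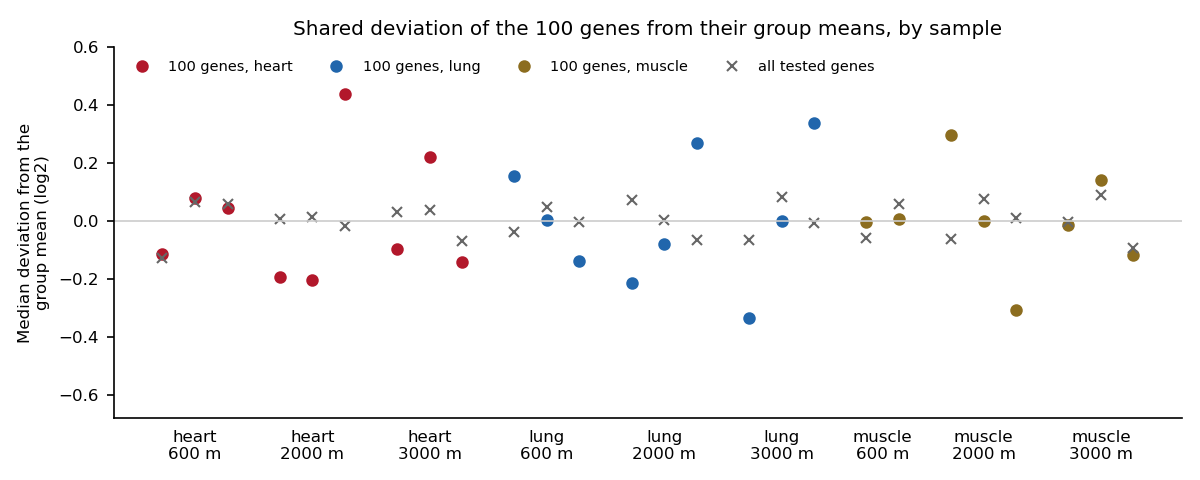
Median deviation from the group mean on the log2 scale (vertical axis) for each of the 26 samples, by tissue and altitude, for the 100 genes (filled circles) and for all tested genes (crosses). The circles spread from -0.33 to 0.44, and the crosses stay between -0.13 and 0.090.

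Most of the set took part in this movement. The deviations of 71 genes correlated above 0.7 with the mean of the other 99 over the 26 samples, those of 79 above 0.5, and that of 1, rank 89, was negative at -0.10. The median was 0.87. The 7 genes high in heart and muscle had a median of 0.29, the 3 high in lung 0.20, and the first gene was at 0.38. The threshold of 0.7 was set after the values were seen, so the following is a description only. The 71 genes had a median range over tissues of 0.50 log2 units and were highest in lung in 48 cases and lowest in muscle in 55. The 29 others had a median range of 1.27, and 19 of them spanned at least 1 log2 unit, against 4 of the 71.

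Of the 71 genes that moved together, 5 were called in at least 1 comparison, and of the 29 others 12, where the share over all genes was 32.3% as given above. The split followed from these same libraries and was not tested. The 71 had 0 calls in lung and muscle, 4 in heart at 3000 m and 1 in heart at 2000 m, each against 600 m. In lung all 71 were lower at 3000 m than at 2000 m, with changes from -0.73 to -0.19 and a median of -0.39, against a median SE of 0.26 per gene, and 0 were called. In heart the 71 had median changes of -0.38 at 3000 m and -0.18 at 2000 m against 600 m, with a median SE of 0.22. Since these genes moved together, their common sign counts as 1 shift measured over 3 libraries a group, and not as 71. In muscle their median change was -0.081 at 3000 m and -0.17 at 2000 m.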

How the data were processed

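Total RNA from heart, lung and skeletal muscle was made into strand-specific dUTP libraries, per the labels. The authors aligned reads with TopHat2 (version 2.0.11) and estimated FPKM with Cufflinks (version 2.2.1), on goat genome CHIR_1.0. The methods cover the 600 m and 3000 m animals; how the 2000 m libraries were handled is not given in the sources used here. The deposited values are log2(FPKM + 1) for 22131 genes in 27 libraries, and FPKM was recovered from them. All of the sample columns were used.

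The 100 genes and the tests were chosen with earlier results of these data known. Genes with a mean above 0.5 FPKM in a tissue were tested with limma (version 3.58.1, R version 4.3.3; lmFit and eBayes with trend, two-sided) on log2(FPKM + 1), pseudocount 1, with all altitudes of a tissue in 1 fit and Benjamini-Hochberg adjustment over all genes tested, threshold 0.05. limma took the place of the Cuffdiff test of the study, whose abundance files were not used here. Fold changes are on the log2(FPKM + 1) scale. Differences between tissues were interaction contrasts in 1 fit of 9 groups, with no pairing of libraries between tissues. The scripts were tested on simulated data. Identifiers were looked up in a RefSeq gene table and 0 of 22131 matched, so gene names, positions and sequences are not given.

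Relative depth came from the value that 1 read gives to low genes, with reads recovered for 1234 genes (5.58%). Muscle replicates 1 and 2 at 600 m, which differed by less than 2 times the sampling variance over 88 of these genes, were averaged in FPKM. Named by identifier were the first gene and, of the genes with the same sign at 3000 m against 600 m in 3 tissues and called in at least 1, up to 2 that rose and 2 that fell with the largest smallest change; 0 rose, and rank 16 was added after its values were seen.

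Replicate numbers are shared between groups. Between heart and lung libraries of the same number, deviations from group means correlated at 0.15 to 0.45 in 9 pairs. For different numbers they ran from -0.38 to 0.14. Equal numbers were therefore taken to pair heart with lung, but the contrast of heart against lung was fitted without this pairing. With muscle, correlations for equal numbers ran from -0.24 to 0.30 (heart) and -0.33 to 0.26 (lung), with medians of 0.19 and 0.16. Different numbers ran from -0.28 to 0.28 and -0.29 to 0.32, with medians of -0.067 and -0.056. The medians differed in the same direction as for heart and lung (0.25 against -0.13). The ranges overlapped, however, and muscle was not paired. Across altitudes equal numbers ran from -0.20 to 0.28 and were not paired either. Alternatives were 4 other scalings, a pseudocount of 0.1, no filter, every library as a separate sample, a replicate block, only the groups compared, leaving out each sample, and for the shares other set sizes.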

Additional observations from a re-analysis of the deposited data

Results flagged for a closer look

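The gene at rank 4 passed the test of a difference between heart and muscle in the change from 600 m to 3000 m, close to the threshold. On the log2(FPKM + 1) scale, heart minus muscle was 1.75 (SE 0.43, unadjusted p = 0.000572, limma adjusted p = 0.0481 over 13723 genes). Muscle libraries were at 36296, 33750 and 26568 FPKM at 600 m and at 5531, 10442 and 4466 at 3000 m, while heart libraries were at 6169, 11284 and 9315 FPKM at 600 m and at 6472, 6594 and 5281 at 3000 m. Lung minus muscle was 1.62 (SE 0.43), with an adjusted p of 0.0597. The number of the 100 genes called for heart against muscle was 0 with median-of-ratios scaling, quantile normalization, libraries brought to the same sum, a pseudocount of 0.1 or no filter, and without any 1 of 12 libraries, so the call of rank 4 was lost in each of these.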

How the results depend on the processing

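The values are FPKM without counts, groups hold 2 or 3 samples, and absolute depth is unknown, so counting error could not be set against the spread between libraries. The counts below are of the 100 genes called, at 3000 m against 600 m unless 2000 m is named. With median-of-ratios scaling, heart at 2000 m against 600 m had 19, all lower, where 13.7% of the 12363 genes tested were called lower. For other counts of the 4 scalings, brackets hold the number of genes called, of 13965 in lung, 11920 in muscle and 13723 between tissues. With median-of-ratios scaling lung had 0 (283), heart against muscle 0 (274) and lung against muscle 1 (301). With quantile normalization, lung had 0 (43), heart against muscle 0 (119) and lung against muscle 2 (397). With libraries brought to the same sum, lung had 0 (62) at 3000 m and 0 (215) at 2000 m. Heart against muscle then had 0 (76) and lung against muscle 1 (182). Scaled to the genes outside the set, lung had 0 at both altitudes (31 and 441), muscle 5 (307) and lung against muscle 1 (260). With a pseudocount of 0.1, heart against muscle had 0. With no filter, which tests more genes, heart had 4, lung 0 at both altitudes, muscle 0 at 3000 m and 1 at 2000 m, and heart against muscle 0. With every library as a separate sample, muscle had 6, heart against muscle 3 and lung against muscle 1. With only the groups compared in the fit, heart had 5, lung 0 at both altitudes and muscle 0. For the settings that are not scalings, the share over all genes is not given. Apart from where the construction is named, the cause was not tested.

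With the replicate number as a block and every library separate, lung had 0 calls at both altitudes, muscle 6, heart against muscle 3 and lung against muscle 1. Heart had 7 and 10, and heart against lung had 0 with and without the block. The block changed no other count by over 1.5 times. Between tissues it joined libraries of the same altitude and number in all 3 tissues, muscle included, with an estimated correlation of 0.124 within blocks. Within a tissue it joined equal numbers across altitudes, which were not taken as pairs. The block therefore does not test the pairing of heart with lung.

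Leaving out 1 sample at a time, calls ranged from 0 to 15 in heart at 3000 m and from 4 to 17 at 2000 m, from 0 to 4 in lung at each altitude, from 0 to 5 in muscle at 3000 m and from 1 to 6 at 2000 m, and from 0 to 3 for heart against muscle and for lung against muscle. It stayed at 0 for heart against lung and for 3000 m against 2000 m. Where this left 1 sample in a group, that sample was assumed to vary like the others. Mean shares ranged from 33.6% to 34.4% in heart, 28.6% to 29.7% in lung and 27.4% to 30.3% in muscle. The first 50 genes held 28.0% of heart and 22.1% of lung, the first 200 held 43.0% of heart, 35.4% of lung and 38.4% of muscle, and heart held 27.9% without the first gene.

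Of the alternative values of the 4 named genes, 334 stayed on their side of the threshold, 79 lost a call, 6 gained one and 5 turned sign. All 5 were uncalled changes of rank 16: -0.13 with median-of-ratios scaling in heart at 2000 m, 0.014 with quantile normalization in lung at 3000 m, and with 1 sample left out in heart at 2000 m, where the range was -0.015 to 0.11 (600 m replicate 3 gave -0.015 and 2000 m replicate 1 gave -0.0017), and in lung at 3000 m, where it was -0.39 to 0.018 (3000 m replicate 1 gave 0.018).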
